A study of Mus musculus with 8 samples.

Results

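The 10 heat shock chaperone genes described here are the cytosolic HSP90s Hsp90aa1 and Hsp90ab1, the cytosolic HSP70s Hspa8, Hspa1a and Hspa1b, the HSP110-type exchange factors Hspa4 and Hsph1, the HSP40 co-chaperone Dnajb1, and the mitochondrial chaperonin pair Hspd1 and Hspe1. They were chosen by gene symbol, and all 10 were found among the 24426 genes of the deposited table and passed the filter on low counts. Positions given for them are those of the protein-coding genes in GENCODE release M21 (GRCm38). The study sequenced polyadenylated RNA from Th17 cells of C57BL/6J background mice, in 4 groups of 2 libraries each. Cells transduced with miR-96 are compared with cells transduced with a control vector. Cells of the genotype miR-183C-/- (KO) are compared with miR-183C+/+ (WT) cells, where miR-183C stands for the cluster of miR-183, miR-96 and miR-182. All cells were grown under the condition the labels call Th17(23) and harvested on day 4 to 5. The labels describe a sort for GFP for all cultures but give the KO and WT libraries as not transduced, so what these cells carried is not settled by the labels. They also do not say whether the deletion was restricted to a cell type or which promoter drove the vectors. No label says that the duplicates of a group came from separate animals or cultures. The p-values thus measure the spread between these libraries, whose source the labels do not give. Sex-linked transcripts, given below, differed between the duplicates of the miR-96, KO and WT groups.

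Chaperones bind proteins that are not fully folded. In the cytosol, HSP40 proteins such as Dnajb1 deliver clients to HSP70, exchange factors of the HSP110 type release ADP from HSP70, and clients such as kinases and steroid receptors pass on to HSP90. In mitochondria, Hspd1 (HSP60) forms a folding chamber that Hspe1 (HSP10) closes. Heat shock factor 1 raises many of these genes under stress through heat shock elements, inverted repeats of the unit nGAAn. Activated T cells make much protein and express the constitutive members at high levels.

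The microRNAs of the cluster bring a second sequence to which the chaperone transcripts can be compared. Their mature sequences lie on chromosome 6, minus strand (RefSeq, GRCm38.p6), and are shown because bases 2 to 8, the seed, in capitals here, pair with target transcripts. They are read at chr6:30169506-30169528 for miR-96, chr6:30165962-30165986 for miR-182 and chr6:30169711-30169732 for miR-183.
mmu-miR-96-5p: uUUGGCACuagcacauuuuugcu
mmu-miR-182-5p: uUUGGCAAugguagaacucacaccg
mmu-miR-183-5p: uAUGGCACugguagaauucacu
The miR-96 and miR-182 seeds differ in their last base only. In the longest annotated 3′UTR of each of the 10 genes (GENCODE release M21), 0 held GTGCCAA, the site for the miR-96 seed, against 10.5% of the 11065 tested genes with an annotated 3′UTR. Hsph1 held 1 site for miR-182, TTGCCAA, which 13.8% of those genes held, and Dnajb1 held 1 for miR-183, GTGCCAT, which 11.9% held. Both sites are printed with their flanks, the matched letters in capitals; they start at base 332 of 963 in the Hsph1 3′UTR and at base 1324 of 1834 in that of Dnajb1.
Hsph1: gcagttattcTTGCCAAgggttttgtt
Dnajb1: gaggattacaGTGCCATctgcctgaat

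The libraries held 7142429 to 12452659 estimated counts. The Mir96 gene had 7 and 2 counts in the miR-96 libraries and 0 in the other 6, and Mir182 and Mir183 had 0 in all 8, which allows up to 3 counts in a library. Selection for polyadenylated RNA leaves out mature microRNAs, so the KO label has no check in these counts. KO library 1 stood apart: 55.6% of its detected genes had counts that were not whole to within 0.02, against 6.39% to 7.41% in the other 7, and 9 of the 10 chaperones were not whole there, against 0 to 2 elsewhere. The edgeR calls between KO and WT cells depended on this library and on each WT library, as given below. Of 10 T helper and Th17 markers, 9 were matched, and their summed level was 1671 and 2110 CPM (counts scaled to a common library size) in miR-96 libraries, 1444 and 1106 in control vector libraries, 1285 and 1183 in KO libraries, and 1399 and 1754 in WT libraries. B and plasma cell markers summed to 58.1 and 68.8 CPM with miR-96 against 2.43 and 2.71 with the control vector, and to 7.44 and 9.17 CPM in KO against 62.5 and 140 CPM in WT libraries. Xist had 1082 and 166 CPM with miR-96 against 1220 and 1480 with the control vector, and 0 and 144 CPM in KO against 1217 and 390 in WT libraries. Summed, 4 Y-linked genes had 111 and 330 CPM with miR-96 against 1.02 and 0.0967 with the control vector, and 244 and 266 CPM in KO against 114 and 283 in WT libraries. Levels of the sex-linked transcripts thus differed between the groups compared as well as within them, and their part in the results was not tested. In bulk RNA, fewer cells of a type and less RNA per cell cannot be told apart.

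The chaperones spanned a wide range of levels. Per kilobase of exon, averaged over all 8 libraries, Hspa8 had 1272 and Hsp90ab1 1011 CPM, Hsp90aa1 385, Hspd1 316 and Hspe1 177 CPM, Hspa4 81.3, Hsph1 38.6 and Dnajb1 32.7 CPM, and the stress-inducible Hspa1b and Hspa1a only 4.77 and 3.02 CPM. These lengths join all annotated exons of a gene. They come to 7266 bases for Hsph1, where a transcript has 3140, and to 2967 for Hspa1a, as in its transcript. Levels and ratios between genes per kilobase depend on them. The 10 genes together took 0.878% to 1.46% of a library. Their summed level was 12273 and 9693 CPM with miR-96, against 10556 and 13809 CPM with the control vector, and 8784 and 11530 CPM in KO libraries, against 14567 and 14551 CPM in WT libraries. Both WT libraries stood above the other 6, and the WT duplicates lay far closer together than those of any other group.

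**Figure D1:**
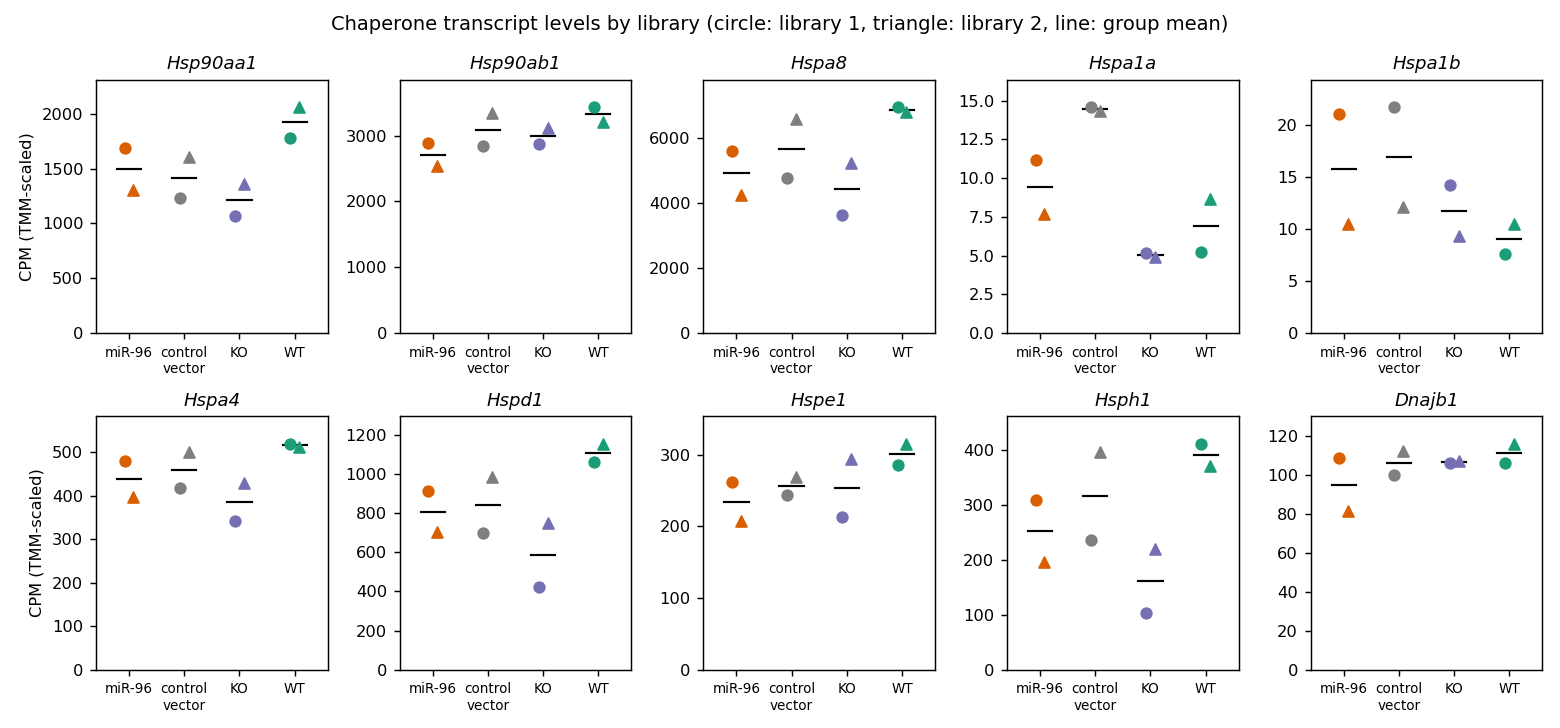
TMM-scaled CPM of each chaperone in miR-96, control vector, KO and WT libraries, on linear axes that start at 0, with circles for library 1, triangles for library 2 and a line at the group mean. WT libraries stood highest for 8 of the 10 genes and control vector library 1 for Hspa1a and Hspa1b, and KO library 1 was the lowest library for 5 genes.

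By group mean, WT was highest for 8 genes and the control vector for Hspa1a and Hspa1b. KO was lowest for 6 genes, miR-96 for Hsp90ab1, Hspe1 and Dnajb1, and WT for Hspa1b. The group at the top stood clear of the second, with no overlap of libraries, for Hsp90aa1, Hspa8, Hspa4, Hspd1 and Hspe1, each with WT on top, and for Hspa1a with the control vector on top. The groups ranked next below the top overlapped for all 10 genes, and the group ranked lowest stood clear of the one above it for Hspa1a only. For Dnajb1 even the highest and the lowest group overlapped. The highest library exceeded the lowest 4.01-fold for Hsph1, 2.99-fold for Hspa1a, 2.88-fold for Hspa1b and 2.72-fold for Hspd1, but only 1.43-fold for Dnajb1 and 1.35-fold for Hsp90ab1.

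The first comparison asks what loss of the whole cluster does to these transcripts. In KO cells, Hsph1, Hspd1, Hsp90aa1, Hspa8 and Hspa4 were lower than in WT cells, at 0.411 to 0.748 of the WT mean, while Hsp90ab1, Hspe1 and Dnajb1 differed by less. Of the pair with low counts, Hspa1a was also lower and Hspa1b higher. None of the 10 passed edgeR's quasi-likelihood test at an adjusted p of 0.05: 0 were called, 5 had an unadjusted p under 0.05, all lower, and DESeq2 called 3, Hsp90aa1, Hspa8 and Hspd1. Among all 11851 genes tested, 6.40% were called lower and 6.63% higher by edgeR, 17.3% had an unadjusted p under 0.05 and were lower, and DESeq2 called 8.83% of its tested genes lower. With no filter on low counts edgeR called 4 of the 10 lower, Hsph1, Hspd1, Hsp90aa1 and Hspa8, against 8.74% of all genes, and with only the KO and WT libraries in the fit 3, Hsph1, Hspd1 and Hsp90aa1, against 10.4%. In 7 chaperones both KO libraries lay below both WT libraries, a pattern that 34.9% of all tested genes showed in that direction. The median log2 fold change was -0.45 over the 10 genes and -0.01 over all genes, and 9 of 10 had a negative fold change against 50.4% of all genes.

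Leaving out KO library 1 moved the largest differences: the log2 fold change became -0.82 for Hsph1, -0.55 for Hspd1, -0.48 for Hsp90aa1, -0.37 for Hspa8 and -0.25 for Hspa4. The smaller ones moved as well, to -0.015 for Hspe1, -0.49 for Hspa1a and 0.054 for Hspa1b. No chaperone and 0 of 12278 genes were then called by edgeR, while 1864 genes, and 0 of the 10, had an unadjusted p under 0.05. The lone KO library was assumed to vary like the other groups. Leaving out KO library 2 in its place gave 4 calls, Hsph1, Hspd1, Hsp90aa1 and Hspa8, all lower in KO, against 8.46% of all tested genes. Without WT library 1 or WT library 2, edgeR called 0 chaperones, and 20 and 1 of all genes. Hspe1 was at -0.51 without KO library 2, and Hspa1a at -0.07 without WT library 2. DESeq2 was not run on these subsets.

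**Figure D2:**
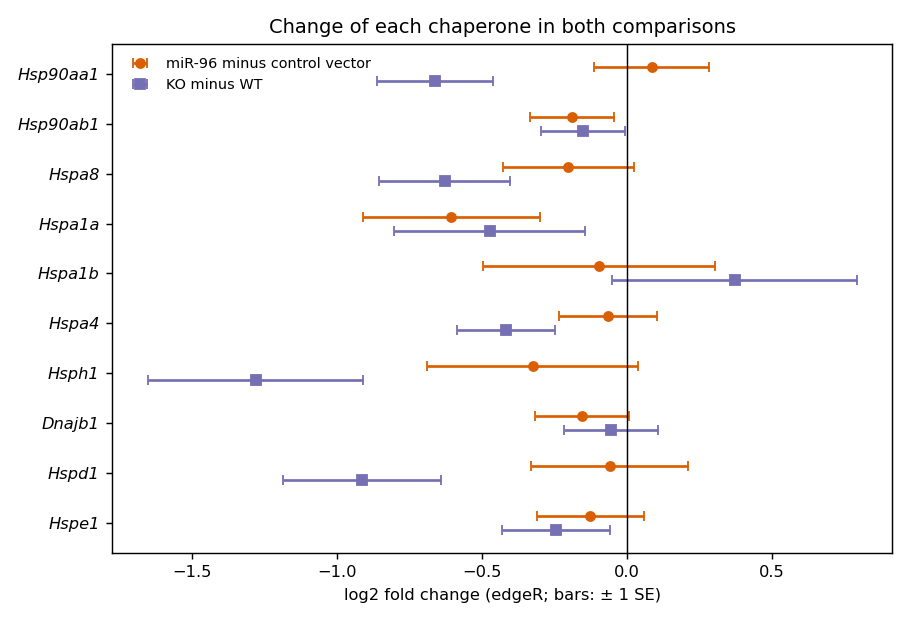
Log2 fold change of each chaperone (edgeR, bars ± 1 SE) for miR-96 minus control vector (circles) and KO minus WT (squares), with a line at 0. Hsph1, Hspd1, Hsp90aa1 and Hspa8 lie furthest to the left in KO minus WT, at -1.28 to -0.63, while in miR-96 minus control vector the genes lie between -0.61 and 0.08.

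The second comparison asks what added miR-96 does. The differences were small: 9 of 10 chaperones had a negative fold change against 49.2% of all genes. Their median was -0.14 on the log2 scale against 0.01 over all genes. Only Hsp90ab1 and Hspa1a kept their sign whichever 1 library was left out. None of the 10 was called by edgeR, none had an unadjusted p under 0.05 and DESeq2 called 0. Of all genes, edgeR called 0.110%, all 13 of them higher with miR-96, although DESeq2 called 77 higher and 36 lower and edgeR without miR-96 library 1 called 65 higher and 60 lower, and 8.70% had an unadjusted p under 0.05. Only Hspa1a had both miR-96 libraries below both control vector libraries, against 17.6% of all genes. For the other 9 the duplicates of the groups overlapped.

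Of the HSP90s, Hsp90aa1 (chr12:110690605-110702728, minus strand) is the isoform that is induced by stress. It had 1065 and 1364 CPM in KO libraries, against 1782 and 2063 CPM in WT libraries, with no overlap. Its log2 fold change was -0.66 ± 0.20 (SE), with an edgeR adjusted p of 0.0582. It had 1690 and 1308 CPM with miR-96, against 1227 and 1601 CPM with the control vector, with overlap and a log2 fold change of 0.08 ± 0.20. Hsp90ab1 (chr17:45567775-45573271, minus strand), the constitutive isoform, was the steadiest of the 10 genes. It had 2872 and 3112 CPM in KO libraries, against 3439 and 3215 CPM in WT libraries, which did not overlap but lay close together (log2 fold change -0.15 ± 0.14, edgeR adjusted p = 0.481). With miR-96 it had 2885 and 2541 CPM, against 2839 and 3350 CPM with the control vector, so the groups overlapped. Per kilobase, Hsp90aa1 stood at 0.283 and 0.334 of Hsp90ab1 in KO libraries, against 0.395 and 0.489 in WT libraries, and at 0.447 and 0.393 with miR-96, against 0.330 and 0.365 with the control vector. The groups did not overlap in either comparison, KO being lower than WT and miR-96 higher than the control vector. With 2 libraries against 2, an exact permutation test cannot go below p = 0.333 (two-sided), so no test of the ratios was made. The coding sequences of the pair are 75.3% identical.

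Hspa8 (chr9:40800984-40810087, plus strand), the constitutive cytosolic HSP70 that also uncoats clathrin, was the most abundant of the 10 per kilobase. It had 3639 and 5239 CPM in KO libraries, against 6950 and 6783 CPM in WT libraries. Both KO libraries were lower, and KO library 1 was the lowest of all 8. The log2 fold change was -0.63 ± 0.23, with an edgeR adjusted p of 0.0897 and a DESeq2 adjusted p of 0.0261. With miR-96 it had 5596 and 4243 CPM, against 4756 and 6569 CPM with the control vector, a spread within each group larger than the difference between them.

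Hsph1 (chr5:149614287-149636376, minus strand), the HSP110 that also holds unfolded clients in solution, showed the largest difference of the 10. It had 103 and 219 CPM in KO libraries, against 412 and 371 CPM in WT libraries, so that KO library 2 lay between KO library 1 and the WT libraries. The log2 fold change was -1.28 ± 0.37, with an adjusted p of 0.0532 by edgeR and 0.0618 by DESeq2. It is among the members whose call changed with the libraries in the fit: leaving out any 1 of the 4 transduced libraries, which are no part of this comparison, gave an edgeR adjusted p of 0.0440 to 0.0484. In transduced cells it had 309 and 196 CPM with miR-96, against 237 and 397 CPM with the control vector, so the duplicates of the control vector alone differed by more than the groups did. Its relative Hspa4 (chr11:53259814-53300457, minus strand), an exchange factor of the same family whose coding sequence is 62.5% identical, varied less. Hspa4 had 342 and 430 CPM in KO libraries, against 519 and 512 CPM in WT libraries, with no overlap (log2 fold change -0.42 ± 0.17, edgeR adjusted p = 0.117). It had 479 and 397 CPM with miR-96, against 417 and 501 CPM with the control vector, with overlap.

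The Hsph1 promoter table entry (RefSeq, GRCm38.p6) holds a heat shock element of 3 units, searched as GAANNTTCNNGAA on both strands. It begins 16 bases into the transcript from the nearer of 2 annotated starts and is shown because few promoters carry one: 0.603% of 32851 promoter windows of 300 bases did. The run is chr5:149636280-149636308, minus strand, with the element in capitals.
Hsph1 element: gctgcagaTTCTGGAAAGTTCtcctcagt

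Dnajb1 (chr8:83608193-83612653, plus strand), the HSP40 that stimulates the ATPase of HSP70, varied little. It had 106.3 and 107.3 CPM in KO libraries, against 106.0 and 116.0 CPM in WT libraries (log2 fold change -0.06 ± 0.16, edgeR adjusted p = 0.836). With miR-96 it had 108.7 and 81.3 CPM, against 99.9 and 112.0 CPM with the control vector, where miR-96 library 2 was the lowest of all 8 libraries. Neither of its promoter windows held the element of 3 units or GAANNTTC, and neither did the window of Hspa4. Promoter entries were matched for 7 of the 10 genes, not for Hsp90aa1, Hsp90ab1 and Hspa8.

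The inducible pair Hspa1a (chr17:34969190-34972156) and Hspa1b (chr17:34956436-34959238), both on the minus strand, was low throughout. Hspa1a had 5.1 and 4.9 CPM in KO libraries, against 5.2 and 8.6 CPM in WT libraries, and 11.2 and 7.7 CPM with miR-96, against 14.6 and 14.3 CPM with the control vector. The transduced groups did not overlap, yet the edgeR adjusted p was 0.610, at a log2 fold change of -0.61 ± 0.31. Hspa1b had 14.2 and 9.3 CPM in KO libraries, against 7.6 and 10.5 CPM in WT libraries, and 21.1 and 10.4 CPM with miR-96, against 21.7 and 12.1 CPM with the control vector. It was the only member with a positive fold change in KO cells (0.37 ± 0.42 on the log2 scale, edgeR adjusted p = 0.563), and the libraries overlapped in both comparisons. The coding sequences of the pair match at 99.4% of positions, so the division of reads between them is uncertain, and their summed count was whole to within 0.02 in 7 of 8 libraries. Summed, they had 19.3 and 14.2 CPM in KO libraries, against 12.8 and 19.1 CPM in WT libraries, and the log2 fold change was 0.063 (edgeR adjusted p = 0.910), so the negative sign for Hspa1a alone was not kept.

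The 300-base promoter windows of Hspa1a and Hspa1b differ at 4 positions. Neither held the element of 3 units, and each held 1 pair of units as GAANNTTC, which 7.86% of promoter windows held and which can also form part of the longer motif. It starts 104 bases before the transcription start in both genes. The runs are printed to show that they are identical in the pair. They lie on the minus strand at chr17:34972242-34972271 and chr17:34959324-34959353, with the units in capitals.
Hspa1a element: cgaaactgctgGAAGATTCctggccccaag
Hspa1b element: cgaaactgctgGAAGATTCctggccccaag

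Hspd1 (chr1:55077835-55088243, minus strand) and Hspe1 (chr1:55088132-55091307, plus strand) are neighbours that are read away from each other from starts close together, and their annotated gene spans overlap. Reads at that overlap are uncertain, since the sources used here do not say whether counting used strand. A run between the Hspe1 start and an Hspd1 start at 55088024 holds overlapping heat shock elements of 3 units on the stretch in capitals. It is shown because the Hspe1 promoter window and the Hspd1 window for a start at 55087932 contain it. The Hspd1 window for the start at 55088243 held 0 such elements. The run is chr1:55088053-55088082, given on the plus strand, which is that of Hspe1. The stretch lies 35 bases from an annotated Hspd1 transcript start at 55088024 and 56 bases from the Hspe1 start at 55088132 (GENCODE release M21).
Hspd1 and Hspe1 shared element: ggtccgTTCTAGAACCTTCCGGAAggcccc

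The levels of the pair did not keep a fixed proportion. Hspd1 had 425 and 750 CPM in KO libraries, against 1061 and 1156 CPM in WT libraries. Both KO libraries were lower, and KO library 1 was the lowest of the 8. The log2 fold change was -0.92 ± 0.27, with an adjusted p of 0.0565 by edgeR and 0.00352 by DESeq2. Hspe1 had 213 and 294 CPM in KO libraries, against 285 and 316 CPM in WT libraries, so that KO library 2 lay within the WT range (log2 fold change -0.25 ± 0.19, edgeR adjusted p = 0.377). Per kilobase, Hspd1 stood at 1.11 and 1.42 times Hspe1 in KO libraries, against 2.07 and 2.04 times in WT libraries. Both KO libraries had the lowest ratios of the 8. In transduced cells, Hspd1 had 911 and 702 CPM with miR-96, against 700 and 983 CPM with the control vector, and Hspe1 had 262 and 207 CPM with miR-96, against 244 and 269 CPM with the control vector. The groups overlapped for both genes, as did the ratio, at 1.94 and 1.89 with miR-96 against 1.604 and 2.04 with the control vector.

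**Figure D3:**
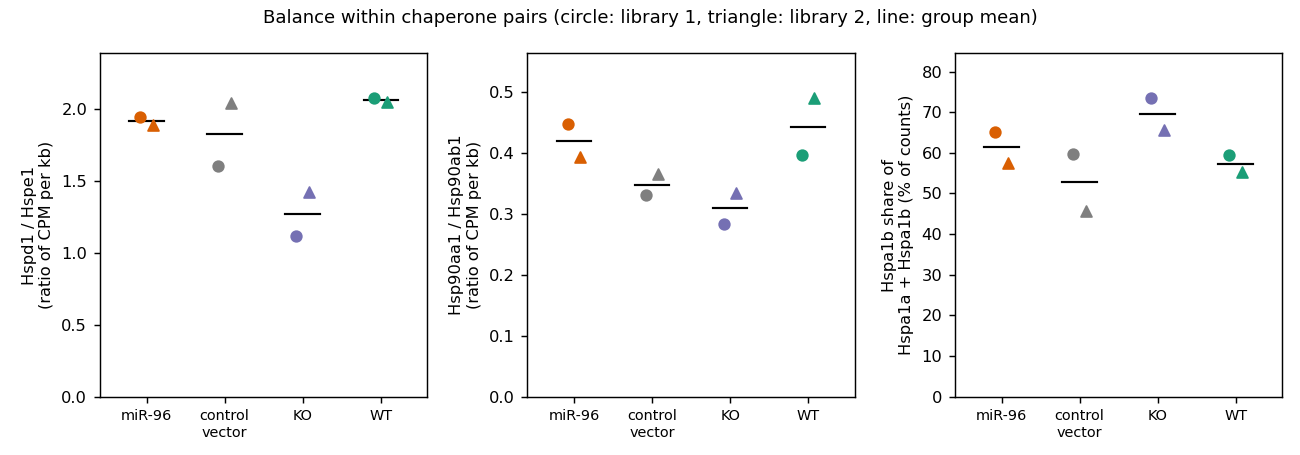
Ratio of Hspd1 to Hspe1 and of Hsp90aa1 to Hsp90ab1, both as CPM per kilobase, and the share of Hspa1b in the summed counts of Hspa1a and Hspa1b, in percent, by group (circle library 1, triangle library 2, line group mean). Both KO libraries sit lowest for Hspd1 over Hspe1, at 1.11 and 1.42, and the Hspa1b share ran from 45.6% to 73.5%.

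Whether the chaperones responded differently to added miR-96 and to loss of the cluster was tested as the difference of the 2 contrasts, which share no libraries. The estimates were 0.95 ± 0.52 for Hsph1, 0.85 ± 0.38 for Hspd1 and 0.75 ± 0.28 for Hsp90aa1 on the log2 scale, with edgeR adjusted p of 0.249, 0.171 and 0.116. None of the 10 was called by edgeR or by DESeq2, and only Hsp90aa1 had an unadjusted p under 0.05 in edgeR, against 2 genes in DESeq2. Over all genes, edgeR called 9.03% here and 29.8% had an unadjusted p under 0.05. In DESeq2, 3229 genes had one, and 11801 were given an adjusted p. With no filter edgeR called these 3 genes higher, against 7.38% of all genes, and without KO library 2 it called Hspd1 higher, against 7.48%. Without KO library 1 the estimates were 0.49 for Hsph1, 0.49 for Hspd1 and 0.56 for Hsp90aa1, and 0 of the 10 had an unadjusted p under 0.05 in edgeR.

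WT cells differ from control vector cells in transduction, as the labels give it, but transduction, genotype background and experiment cannot be told apart here. The sex-linked transcripts and the B and plasma cell markers given above differed between these groups as well. This comparison also shares its control vector libraries with that of miR-96. Hspa1a was lower in WT cells (log2 fold change -1.05 ± 0.31, edgeR adjusted p = 0.189), and its libraries did not overlap. For Hspa1b the estimate was -0.90 ± 0.41 (edgeR adjusted p = 0.310), also with no overlap. Of the 10, 2 had negative fold changes, against 50.5% of all genes, and the other 8 had positive ones, from 0.07 for Dnajb1 to 0.44 for Hsp90aa1. None of the 10 was called by edgeR, which called 0.228% of all genes. Only Hspa1a had an unadjusted p under 0.05, where 8.45% of all genes did and were lower. DESeq2 called 0, with 3 at an unadjusted p under 0.05, 1 higher and 2 lower. Over all genes 1796 had one in DESeq2, which gave 12443 genes an adjusted p. With no filter edgeR called Hspa1a and Hspa1b lower, against 3.97% of all genes. With no overlap, 5 genes stood higher in both WT libraries, against 29.3% of all genes, and 2 lower, against 26.5%.

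The wider chaperone network was followed through lists of genes by role, whose counts between KO and WT cells stand beside 6.63% of all tested genes called higher and 6.40% called lower by edgeR, 9.05% and 8.83% by DESeq2, 17.3% lower at an unadjusted p under 0.05, and 50.4% with a negative fold change. Of 15 HSP90 co-chaperones, 0 were called higher and 2 lower in KO than in WT cells, with a median log2 fold change of -0.21. Cdc37l1, a relative of the kinase-specific co-chaperone Cdc37, had 36.2 and 56.5 CPM in KO libraries, against 80.6 and 80.9 CPM in WT libraries, and fell by 0.80 on the log2 scale (SE 0.21, edgeR adjusted p = 0.0442). DESeq2 called it too, and called 6 of this list lower in all. Tomm70a, the mitochondrial import receptor that docks HSP90 and HSP70, had 182 and 230 CPM in KO libraries, against 310 and 317 CPM in WT libraries, and fell by 0.60 (SE 0.16, edgeR adjusted p = 0.0446). Highest of the list per kilobase of merged exon were Stip1, the adaptor between HSP70 and HSP90, and Ptges3, the p23 co-chaperone. Their log2 fold changes were -0.18 and -0.56, and edgeR did not call them. DESeq2 called Ptges3 (adjusted p = 0.0420). Cdc37l1 also differed between the contrasts, by 1.17 ± 0.30 (edgeR adjusted p = 0.0453), as did Pih1d1, an HSP90 adaptor for assembly of large complexes, by -1.17 ± 0.31 (edgeR adjusted p = 0.0486). Without KO library 1 neither was called, at 0.88 and -1.10, with edgeR adjusted p of 0.149 and 0.166.

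Of 19 HSP70 co-chaperones and other cytosolic HSP70s, 18 were tested, and 1 was called lower and 0 higher in KO cells (median -0.18). It was Bag5, an exchange factor of the BAG family, at 37.5 and 42.4 CPM in KO libraries against 56.5 and 59.5 CPM in WT libraries, and it fell by 0.54 on the log2 scale (SE 0.15, edgeR adjusted p = 0.0482). DESeq2 did not call it (adjusted p = 0.0575) and called 0 of this list. Bag1, another exchange factor, and the HSP40 Dnaja2 were highest per kilobase of merged exon and were called by neither tool, at -0.07 and -0.37. Dnaja1 had more CPM, with a WT mean of 435 against 135 for Bag1 and 283 for Dnaja2. Its merged exons span 8629 bases, against 1349 and 2975. None of the 8 subunits of TRiC, the cytosolic chaperonin for actin and tubulin, was called by edgeR. All 8 had negative fold changes (median -0.24), 3 of them with an unadjusted p under 0.05, and DESeq2 called 2 lower. Without KO library 1, 0 of the 8 had an unadjusted p under 0.05 in edgeR. None of the 6 prefoldin subunits, which hand clients to TRiC, was called by edgeR either (median -0.23), with 2 lower at an unadjusted p under 0.05 and 1 called lower by DESeq2. Of 14 ER chaperones 0 were called by edgeR or DESeq2, with a median of -0.18. In edgeR 4 of them had an unadjusted p under 0.05, 1 higher and 3 lower. In either direction, 4082 of all 11851 genes did. Hspa5 and Calr, the highest of the list per kilobase of merged exon, stood at -0.43 and -0.16.

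Of 10 other mitochondrial chaperones and proteases, 1 was called by edgeR, Lonp1, the ATP-dependent matrix protease, while DESeq2 called 1 higher and 2 lower. It had 277 and 195 CPM in KO libraries, against 104 and 115 CPM in WT libraries, and rose by 1.11 on the log2 scale (SE 0.19, edgeR adjusted p = 0.0246). It also differed between the contrasts, by -1.32 ± 0.27 (edgeR adjusted p = 0.0261), but not past the threshold without KO library 1 (-1.06, edgeR adjusted p = 0.0903). The matrix HSP70 Hspa9 stood at -0.51 (adjusted p of 0.053 by edgeR and 0.0192 by DESeq2) and the mitochondrial HSP90 Trap1 at -0.15, so the list had members on both sides of 0 (median -0.03). The list of small heat shock proteins held 9 genes, of which only Hspb6 and Hspb11 were tested. Hspb11 is in it by its symbol. Hspb6 rose by 3.32 (SE 0.66, edgeR adjusted p = 0.0270), from a low level. It had 15.6 and 8.46 CPM in KO libraries, against 0.853 and 1.49 CPM in WT libraries. Of 7 heat shock factors and regulators, 4 were tested, 0 were called by edgeR or DESeq2 and 0 had an unadjusted p under 0.05. Hsf1 itself had 39.8 and 43.7 CPM in KO libraries, against 45.1 and 53.8 CPM in WT libraries. Since edgeR called 0 genes in all without KO library 1, none of the calls between KO and WT cells in these lists held without it, where the log2 fold changes were -0.50 for Cdc37l1, -0.43 for Tomm70a, -0.44 for Bag5, 0.85 for Lonp1 and 2.84 for Hspb6. In miR-96 against control vector cells, and in WT against control vector cells, edgeR and DESeq2 called 0 genes of these 8 lists. In edgeR 1 and 14 of their genes had an unadjusted p under 0.05, against 8.70% and 16.5% of all genes.

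**Figure D4:**
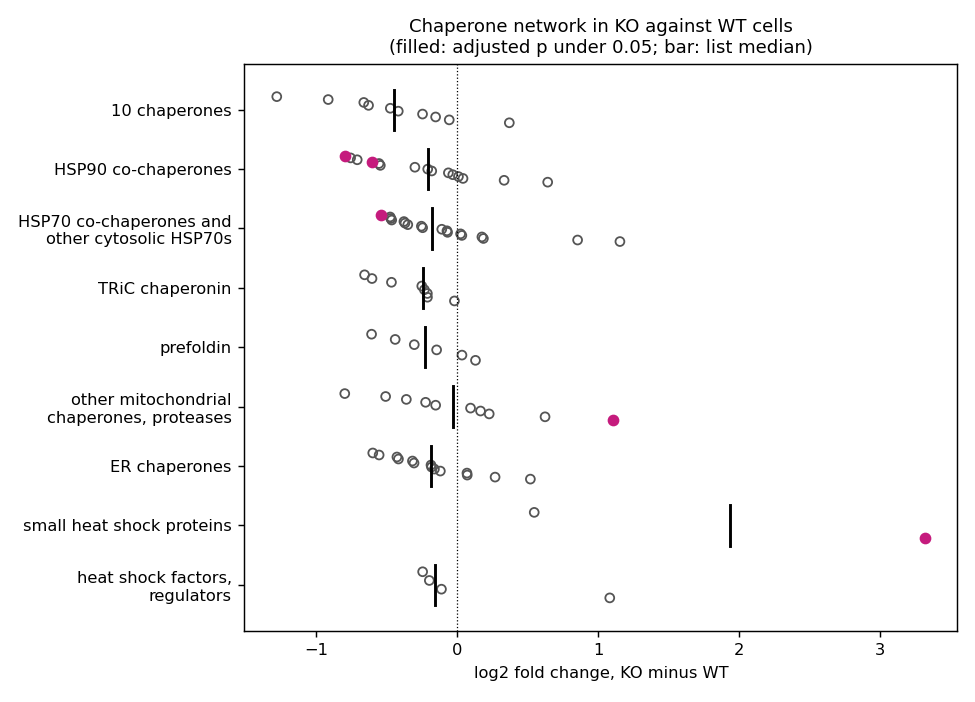
Log2 fold change in KO minus WT for each tested gene of the 10 chaperones and of 8 lists of related genes, with a bar at each list's median, a dotted line at 0 and filled points where the edgeR adjusted p was under 0.05. Medians lie between -0.45 and -0.03 for 8 of the 9 rows, and the small heat shock protein list has only 2 tested genes.

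The mean profile of the 10 chaperones over the 8 libraries centred each gene on its own mean log2 CPM. It was lowest in KO library 1, at -0.45, and highest in control vector library 2, at 0.25, with WT library 2 close at 0.24. Each gene has equal weight in this profile, Hspa1a and Hspa1b with their low counts included. Among 5780 other genes of at least 5 log2 CPM on average, those with the smallest root mean square difference from it were Rbm45 (0.0430), Tra2b (0.0525), Smg8 (0.0529), Wdr4 (0.0610) and Ppp1r8 (0.0611), on the log2 scale.

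Genes with the heat shock element of 3 units in a promoter window numbered 179, of which 53 were tested, the 3 chaperones Hspd1, Hspe1 and Hsph1 included. In KO against WT cells 3 of them were called higher and 3 lower, with a median log2 fold change of -0.17, beside 6.63% called higher and 6.40% lower of all genes. A match of letters is a description of the window and not a bound site.

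Other gene groups are given for the same libraries, where edgeR called 6.63% of all genes higher and 6.40% lower in KO cells. Of 22 cell cycle genes, 10 were called higher in KO than in WT cells and 0 lower, with a median log2 fold change of 0.87, and Ccnb2, cyclin B2, rose by 2.43 (SE 0.32, edgeR adjusted p = 0.0246). Without KO library 1 the log2 fold change of Ccnb2 was 2.13. Of 17 immediate early genes, which also respond to handling, Fos and Fosb were called higher, by 1.91 and 2.18, and Egr2 lower, by -1.41. Of the 9 matched T helper and Th17 markers, Il17a and Il17f were called lower and Cd3e higher, and of 4 regulatory T cell markers Foxp3 and Ikzf2 were called lower, the list summing to 1763 and 1690 CPM in KO libraries against 2207 and 2463 CPM in WT libraries. Of the 6 B and plasma cell markers, 5 were called lower in KO cells by edgeR and 4 by DESeq2, which called 8.83% of its tested genes lower. Of the 6 CD8 T and NK cell markers, 4 were tested and 2 called lower, at a summed 10.3 and 9.05 CPM in KO libraries against 27.1 and 56.7 CPM in WT libraries, with Klrb1c and Ncr1 at 0 in all 8 libraries. Of 6 myeloid markers, 5 were tested and 0 called by edgeR or DESeq2, with 0 at an unadjusted p under 0.05 in edgeR, at a summed 15.96 and 7.62 CPM in KO libraries against 6.82 and 8.72 CPM in WT libraries. With miR-96, all 22 cell cycle genes had negative fold changes against the control vector (median -0.82), where 49.2% of all genes did. Among these 22, edgeR called 0, DESeq2 called 5 lower, and 16 had an unadjusted p under 0.05 in edgeR. Over all genes in this comparison, edgeR called 0.110% and 8.70% had an unadjusted p under 0.05. DESeq2 called 36 lower of 12763 given an adjusted p. Of the 6 B and plasma cell markers, edgeR called 2 higher with miR-96. Without KO library 1 none of the calls between KO and WT cells in these groups held. The log2 fold changes were then 1.46 for Fos, 2.13 for Fosb and -0.97 for Egr2. They were -3.10 for Il17a, -2.29 for Il17f, 0.40 for Cd3e, -10.3 for Foxp3 and -3.39 for Ikzf2. For Foxp3 the estimate was -6.36 with both KO libraries, so its size is not settled by these libraries. The part of these groups in the chaperone levels was not tested.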

How the data were processed

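RNA-seq of 8 mouse Th17 libraries was used as deposited: a table of estimated counts per gene symbol that the authors made, not normalized. Tools named in the submitters' processing notes, with no roles, are STAR 2.3.0, bcl2fastq 2.16.0.10, edgeR and Partek, and the build is mm10. The annotation, and whether counting used strand, are not given in the sources used here. Of 24453 lines, 27 with no gene symbol (at most 0.243% of a library's counts) were left out. Counts were rounded and tested in R 4.3.3 with edgeR 4.0.16: TMM scaling, filterByExpr (minimum count 10, minimum total 15), a quasi-likelihood fit with a group term over all 8 libraries, and Benjamini-Hochberg adjustment over 11851 genes at 0.05 (4 residual degrees of freedom, biological coefficient of variation 0.188). The fit was tested on simulated data. Levels are CPM with TMM-scaled library sizes, and levels per kilobase use merged exon length from GENCODE release M21, which matched 23430 symbols. Merged exons can be longer than a transcript, so levels per kilobase, and ranks and ratios made from them, depend on the annotation. Alternatives were DESeq2 1.42.0, other scalings, other filters, other sets of libraries and a replicate block.

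All 10 chaperones are named. From each list, genes called (at most the 4 of smallest p per comparison) and the 2 highest per kilobase are named, with exceptions for counts of 5 or fewer, named after their values were seen. The members and lists were chosen with earlier results of these data known.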

Additional observations from a re-analysis of the deposited data

How the results depend on the processing

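The median fold change over all genes stayed within 0.1 on the log2 scale under each scaling. For the 10 chaperones, 293 of 310 log2 fold changes from alternatives that kept all libraries of a comparison had the same direction and side of the threshold, 15 passed it only there, and 2 turned: Dnajb1 in KO minus WT was 0.016 with upper-quartile factors, and Hspa1a was 0.063 when summed with Hspa1b. The cause was not tested.

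Chaperones called in KO minus WT numbered 0, but 4 with no filter, 3 with only the libraries of the comparison, 3 with DESeq2 and 0 to 4 when 1 library was left out, the 4 being without KO library 2. In the difference of contrasts they were 3 with no filter and 0 to 1 when 1 library was left out, and in WT minus control vector 2 with no filter. All genes called were 13 in miR-96 minus control vector, and 466 with no filter, 8 with only the libraries of the comparison, 113 with DESeq2 and 0 to 125 when 1 library was left out, the 125 being without miR-96 library 1 and the 0 without control vector library 1. In KO minus WT they were 1544, and 3151 with no filter, 2641 with only its libraries and 0 to 1975 when 1 was left out, the 0 being without KO library 1, with 20 and 1 without WT library 1 and WT library 2. In the difference they were 1070, and 2534 with no filter, 1647 with DESeq2 and 23 to 1613 when 1 was left out, the 23 being without WT library 2. In WT minus control vector they were 27, and 1108 with no filter, 94 with only its libraries, 376 with DESeq2 and 2 to 77 when 1 was left out, the 2 being without control vector library 1 and the 77 without miR-96 library 1.

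Leaving out 1 library turned the sign of 16 small estimates. In miR-96 minus control vector the ranges were -0.12 to 0.30 for Hsp90aa1, -0.44 to 0.060 for Hspa8, -0.69 to 0.36 for Hspa1b, -0.22 to 0.084 for Hspa4, -0.31 to 0.22 for Hspd1, -0.30 to 0.028 for Hspe1, -0.69 to 0.10 for Hsph1 and -0.37 to 0.033 for Dnajb1. In KO minus WT, Dnajb1 ranged from -0.13 to 0.0064. In the difference, Hsp90ab1 ranged from -0.21 to 0.096, Hspa1a from -0.54 to 0.17, Hspe1 from -0.11 to 0.38 and Dnajb1 from -0.32 to 0.088. In WT minus control vector, Hsp90ab1 ranged from -0.051 to 0.22, Hsph1 from -0.060 to 0.72 and Dnajb1 from -0.054 to 0.15.

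Deviations of same-numbered libraries had correlations of -0.22 to 0.34 over 6 pairs of groups, the highest for control vector with KO. Whether the numbers stand for anything shared is not settled by these values. With the replicate number as a block, edgeR called 0 chaperones in each of the 4 comparisons, and 16, 1320, 977 and 65 of all genes. Low counts limit Hspa1a and Hspa1b, and 2 libraries a group limit all.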
